A study of Mus musculus with 15 samples.

Results

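The genes described are the replication-type histone genes that could be read in polyA-selected RNA of mouse T-ALL cells, a T lineage acute lymphoblastic leukemia, while MYC was turned off. They are the genes whose mouse symbol starts with Hist1h, Hist2h, Hist3h or Hist4h in GENCODE M21, without pseudogene (-ps) symbols, with at least 10 counts in at least 3 of the 15 libraries. Of 69 such genes, 40 met the rule, out of 53380 features in the deposited tables. They were 5 of 6 linker histone (H1) genes and 35 of 63 core histone genes, namely 8 of 20 H2A, 10 of 18 H2B, 9 of 12 H3 and 8 of 13 H4 genes. The other 29 genes reached at most 16 counts in any library, and 5 of them had no count at all. Just inside the rule, Hist1h2aj, Hist1h2bp and Hist1h4j had 10 or more counts in 3 libraries. Just outside it, Hist1h3b and Hist1h4k had 10 or more in 2 libraries. M21 types Hist1h2aj as a pseudogene although its symbol does not say so.

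Core histones H2A, H2B, H3 and H4 form the nucleosome, and linker histones bind the DNA that enters and leaves it. Most copies of these genes are transcribed in S phase, and their mRNAs end just after a conserved stem-loop instead of in a polyA tail, the only major class of animal mRNA to do so. The stem-loop binding protein SLBP and the U7 snRNP direct that cut. Some histone genes also make a longer, polyadenylated mRNA from a downstream signal, a form known from differentiating and non-dividing cells, and replication-independent variants such as H1f0 and H3f3b are polyadenylated throughout. PolyA-selected libraries therefore do not measure the bulk of the S phase histone mRNA, and every level below refers to what was left after that selection.

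The cells were a T-ALL line from the EμSRα-tTA/tet-O-MYC mouse model on an FVB/N background, in which a tetracycline-controlled activator, driven in lymphoid cells, keeps a human MYC transgene on until doxycycline is added. All groups carried both transgenes. The 0 h group was mock treated (MYC on), and the other groups had 2, 4, 8 or 24 h of doxycycline (MYC off), with 3 libraries each. The labels do not say that the 3 libraries came from separate cultures, so the p-values measure the spread between these libraries, which may be technical. The transgene fell from 49894 to 53280 counts per library at 0 h to 605 to 694 at 2 h and 87 to 106 at 24 h, and no library went against its label.

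Total counts lay between 25852711 and 27102318, and a value of 3 counts corresponded to 0.10 to 0.12 CPM (counts scaled to library size) in each library. The third 24 h library stood apart from its group, with a chi-square per degree of freedom of 77.7 and 85.4 against the other two, where other pairs gave 2.81 to 16.5. All 13 T lineage markers were measured, and their summed level in TPM, counts scaled to gene length and depth, went from 11124 to 11401 at 0 h to 32182 to 33136 at 24 h. Of 5 myeloid markers Lyz2 was at 0 in every library and Adgre1 and Mpo reached 2 and 7 counts. Itgam went from 58 to 70 counts at 0 h to 570 to 658 at 24 h. The other tested myeloid marker, Csf1r, had 98 to 227 counts. It passed as lower with edgeR at 4 h (log2 fold change −0.78) and 8 h (−0.84), but not at 24 h (−0.49). The summed myeloid level went from 5.00 to 6.29 TPM at 0 h to 15.2 to 21.8 TPM at 24 h. Of 5 B lineage markers Cd79b, Ms4a1 and Pax5 had no count, nor had the erythroid Hbb-bs or the stromal Col3a1. The stromal Pdgfrb had 28 to 96 counts and passed as higher with edgeR at 8 h and 24 h (log2 fold changes of 0.88 and 0.96). The part of these shifts in the histone results was not tested.

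The annotated histone ends are shown first, because polyA selection acts on how an mRNA ends. Which ends the mRNAs had in these cells was not measured. In the M21 transcripts, 27 of the 40 genes held the stem-loop after the stop codon, against 0.846% of 22460 other coding genes. It was searched as a 16-base hairpin with at least 5 of 6 stem pairs. Some of the other 13 models, such as those of Hist1h1b and Hist1h2ai, hold 0 bases after the stop codon, so no hairpin could be found in them. A polyadenylation signal (AATAAA or ATTAAA) lay in the last 60 bases of 11 of the 40, against 71.3% of the other genes, and 16 of the 40 models ran on for more than 100 bases after the hairpin. The hairpins of the genes the results turn on follow, 5′ to 3′ as DNA, with the hairpin in capitals.
Hist1h1c: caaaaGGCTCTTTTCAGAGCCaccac
Hist1h1d: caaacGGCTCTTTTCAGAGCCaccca
Hist1h1e: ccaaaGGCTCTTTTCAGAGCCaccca
Hist3h2a: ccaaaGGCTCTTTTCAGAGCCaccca
Hist1h2be: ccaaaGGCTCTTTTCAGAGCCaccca
Hist1h3c: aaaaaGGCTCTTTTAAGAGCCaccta
Hist1h3e: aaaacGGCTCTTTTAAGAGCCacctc
Hist1h4i: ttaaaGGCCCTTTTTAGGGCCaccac
Hist1h4j: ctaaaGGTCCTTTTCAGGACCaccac
Hist1h4d: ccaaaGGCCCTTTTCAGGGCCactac
Hist1h1c, Hist1h1d and Hist1h1e carry the same 16 hairpin letters although their levels behaved differently, and so do Hist3h2a and Hist1h2be.

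The Hist1h1c model is a single exon of 1560 bases (chr13:23738808-23740367 on GRCm38, plus strand), with the hairpin 25 bases after the stop codon and 840 further bases behind it. Its last polyadenylation signal starts 26 bases before the end of the model. The ends of 4 such models follow, with the signal in capitals.
Hist1h1c: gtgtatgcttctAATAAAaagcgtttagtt
Hist3h2a: aggtatatgcccAATAAAataagagtacgt
Hist1h4i: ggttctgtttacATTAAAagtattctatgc
Hist2h4: tcgtatacataaAATAAAatcttaaaaaca
Hist1h2bc (chr13:23684199-23692908, plus strand) is annotated with 2 exons and 742 bases after the stop codon, and the search found no hairpin in it. Hist2h2be (chr3:96221119-96223738, plus strand) has 2192 bases after the stop codon, no hairpin match and a polyadenylation signal 22 bases from its end.

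Hist1h1c, which encodes the linker histone that RefSeq names H1f2, rose at every time point after MYC was turned off. It had 109, 101 and 102 counts with MYC on, 273, 310 and 298 counts after 2 h, 201, 233 and 230 counts after 4 h, 390, 472 and 397 counts after 8 h, and 1173, 1217 and 974 counts after 24 h. In TPM it went from 6.90 ± 0.33 at 0 h (SD, n = 3) to 19.4 ± 1.13, 14.1 ± 1.01, 27.1 ± 2.83 and 80.4 ± 3.56. No library of any later group overlapped the 0 h libraries, and the 4 h libraries lay below both the 2 h and the 8 h libraries, a dip that was not tested. The log2 fold change against 0 h was 1.47 ± 0.12 (SE) after 2 h, 1.07 ± 0.13 after 4 h, 1.94 ± 0.12 after 8 h and 3.20 ± 0.12 after 24 h, with edgeR quasi-likelihood adjusted p of 7.58e-07, 3.75e-06, 1.75e-09 and 3.3e-12. Relative to 4 h the 24 h level was higher by 2.13 ± 0.11 on the log2 scale (adjusted p = 6.94e-10).

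Hist1h1d (H1f3) was the other linker gene to pass, with far fewer reads. It had 11, 10 and 8 counts with MYC on, 13, 14 and 15 counts after 4 h, 16, 21 and 26 counts after 8 h, and 31, 49 and 34 counts after 24 h, and the 24 h libraries lay above all others. It was higher by 1.73 ± 0.30 on the log2 scale at 24 h (edgeR adjusted p = 0.000106) and by 1.22 ± 0.28 relative to 4 h (adjusted p = 0.00167). The M21 model of this gene is 7425 bases long, which lowers its TPM (0.57 ± 0.13 at 24 h). The call at 24 h relative to 4 h was lost when only those 2 groups were fitted and without the second 24 h library, with an adjusted p of up to 0.0107.

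Hist1h1a, Hist1h1b and Hist1h1e did not pass at any time point. Hist1h1a (H1f1) had 8 to 11 counts at 0 h and 18 to 24 at 24 h, a log2 fold change of 0.90 ± 0.30 that missed the threshold of 0.01 (edgeR adjusted p = 0.015). Hist1h1b (H1f5), a linker histone of dividing cells, had 5 to 15 counts in all libraries and a log2 fold change of 0.28 ± 0.42 at 24 h. Hist1h1e (H1f4) had 7 to 19 counts, with log2 fold changes of −0.24 ± 0.35, −0.42 ± 0.36, −0.52 ± 0.36 and −0.31 ± 0.35 at 2, 4, 8 and 24 h. Its 0 h and 24 h libraries overlapped. Few reads lay behind these 3 genes, and the Hist1h1e exon shares bases with Hist1h2be and Gm11398 on the same strand, whose reads cannot be told apart from the counts alone.

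**Figure D1:**
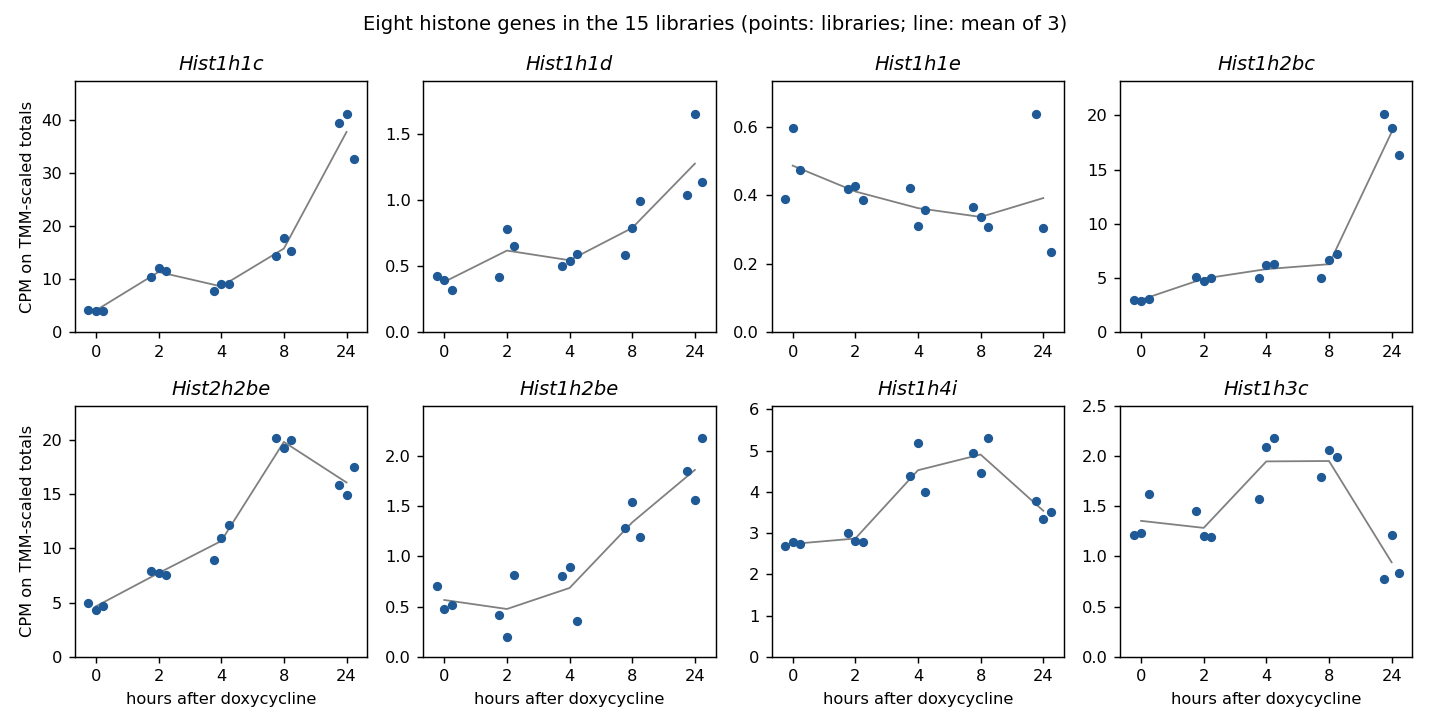
Level of 8 histone genes in the 15 libraries as CPM on TMM-scaled library totals (vertical axis, from 0) against hours after doxycycline (horizontal axis, evenly spaced). Points are libraries and the line joins the means of 3. Hist1h1c, Hist1h2bc and Hist1h1d are highest at 24 h, Hist2h2be and Hist1h4i are highest at 8 h, and the Hist1h1e libraries at 0 h and 24 h overlap.

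Among the core genes, the H2B class held 4 of the 9 calls at 8 h and 3 of the 6 at 24 h. These were 40% and 30% of the H2B genes, against 25.3% and 30.7% of all tested genes. Hist1h2bc had 76, 73 and 78 counts with MYC on, 134, 121 and 129 counts after 2 h, 129, 161 and 158 counts after 4 h, 135, 177 and 188 counts after 8 h, and 599, 558 and 490 counts after 24 h. The libraries of 2, 4 and 8 h stayed within 121 to 188 counts, above 0 h and well below 24 h. The log2 fold change was 0.72 ± 0.15 after 2 h (edgeR adjusted p = 0.00252), 0.96 ± 0.15 after 4 h, 1.07 ± 0.15 after 8 h and 2.63 ± 0.14 after 24 h (adjusted p = 2.17e-10). The 2 h call was lost without replicate 1 or 2 of 0 h and without replicate 1 or 3 of 2 h (adjusted p of up to 0.0131). A share of 30.6% of the 50-base stretches of its transcript also occurs in other genes' transcripts.

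Hist2h2be, the H2B gene of cluster 2 that met the count rule, had overlapping counts at 8 h and 24 h. It had 128, 108 and 118 counts with MYC on, 207, 197 and 196 counts after 2 h, 233, 282 and 307 counts after 4 h, 549, 514 and 522 counts after 8 h, and 470, 442 and 523 counts after 24 h. The 24 h libraries overlapped those of 8 h in TPM and lay below them in CPM on TMM-scaled totals, a difference that was not tested. The log2 fold change was 0.73 ± 0.12, 1.20 ± 0.11, 2.09 ± 0.11 and 1.79 ± 0.11 at 2, 4, 8 and 24 h (edgeR adjusted p of 0.000265, 3.81e-07, 2.42e-10 and 1.12e-09). None of its 50-base stretches occurs in another gene's M21 transcript. Near matches and copies outside the annotation were not searched.

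Among the other H2B genes, Hist1h2be and Hist1h2bh also passed. Hist1h2be went from 18, 12 and 13 counts with MYC on to 35, 41 and 31 counts after 8 h and 55, 46 and 65 counts after 24 h, a log2 fold change of 1.24 ± 0.37 after 8 h (edgeR adjusted p = 0.00893) and 1.71 ± 0.35 after 24 h (adjusted p = 0.000501). Of 23 alternative fits, 13 lost the 8 h call (adjusted p of up to 0.0407) and none the 24 h call. Its exons overlap Hist1h1e and Gm11398. Hist1h2bh went from 4, 5 and 3 counts with MYC on to 11, 20 and 11 counts after 4 h. After 8 h it had 20, 19 and 11 counts, and after 24 h 4, 10 and 10. Hist1h2bh did not pass at 24 h (0.75 ± 0.53 on the log2 scale, edgeR adjusted p = 0.215). It was higher by 1.76 ± 0.48 on the log2 scale after 4 h (edgeR adjusted p = 0.00625) and by 1.95 ± 0.46 after 8 h of doxycycline (adjusted p = 0.00188), and 7 of 23 alternative fits lost the 4 h call. Hist1h2bk, at 10.6 ± 0.62 TPM the most abundant member at 0 h, had 46 to 52 counts then and 20 to 46 at 24 h, a log2 fold change of −0.74 ± 0.26 (adjusted p = 0.0196) that did not pass.

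Among the H4 genes, Hist1h4i had the highest TPM. It had 69, 70 and 69 counts with MYC on, 79, 72 and 72 counts after 2 h, 114, 134 and 101 counts after 4 h, 135, 119 and 138 counts after 8 h, and 112, 99 and 105 counts after 24 h. All 4 h and 8 h libraries lay above the 0 h and 2 h libraries. It was higher by 0.72 ± 0.13 on the log2 scale at 4 h (edgeR adjusted p = 0.000224) and 0.84 ± 0.13 at 8 h (adjusted p = 3.4e-05), and at 24 h the value of 0.37 ± 0.13 did not pass (adjusted p = 0.0186). Hist1h4j had 1 to 5 counts at 0 h and 20, 20 and 10 at 24 h, which passed with a log2 fold change of 2.20 ± 0.50 (adjusted p = 0.00103). Hist2h4 passed at 24 h with 7 to 8 counts at 0 h and 15 to 35 at 24 h (1.36 ± 0.39, adjusted p = 0.00584), a call that was lost in 5 of 23 alternative fits, among them those without any 1 of the 0 h libraries and without the third 24 h library (adjusted p of up to 0.0449). Hist1h4b, the second most abundant H4 gene, had 8 to 16 counts at 0 h and 19 to 33 at 8 h and did not pass (1.05 ± 0.36, adjusted p = 0.0199).

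The mean level of the H2A genes was highest at 8 h in 5 of 8 cases in TPM and in 6 of 8 in CPM on TMM-scaled totals. Hist1h2ag, the most abundant of them, had 37, 32 and 36 counts with MYC on, 76, 74 and 60 counts after 8 h and 52, 37 and 37 counts after 24 h. It was higher at 8 h by 0.92 ± 0.19 on the log2 scale (edgeR adjusted p = 0.000729) and close to 0 h at 24 h (0.03 ± 0.21). Hist1h2ai, next in TPM, passed at 8 h at 0.78 ± 0.23 (adjusted p = 0.0086), but 18 of 24 alternative fits lost that call. The remaining H2A call was Hist3h2a in cluster 3, whose exon overlaps Trim17, with 33 to 45 counts at 0 h, 81 to 111 at 8 h and 78 to 111 at 24 h (1.02 ± 0.20 at 24 h, adjusted p = 0.000316).

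No H3 gene passed in the upward direction at any time point with edgeR or DESeq2, although Hist1h3c had an unadjusted p under 0.05 after 4 and 8 h (1 of 9 genes), and the 9 H3 genes ranged from −0.95 to 0.83 on the log2 scale at 24 h. Hist1h3c, the most abundant H3 gene, had 31, 31 and 41 counts with MYC on, 41, 54 and 55 counts after 4 h and 23, 36 and 25 counts after 24 h. The 24 h libraries lay below the 4 h libraries, and the fall by 1.04 ± 0.21 on the log2 scale between those times passed (edgeR adjusted p = 0.000611). Hist1h3e likewise fell by 1.39 ± 0.40 from 16 to 22 counts at 4 h to 5 to 12 at 24 h (adjusted p = 0.00689), and Hist1h4d by 0.83 ± 0.20 from 53 to 73 to 29 to 47 counts (adjusted p = 0.0023). All 3 calls were lost when only the 4 h and 24 h groups were fitted (adjusted p of 0.0123 for Hist1h3c). With library totals in place of TMM scaling the Hist1h3e and Hist1h4d calls were lost, and in all 8 of 23 alternative fits lost the Hist1h3e call and 3 of 24 the Hist1h4d call. Hist1h3g, second among the H3 genes in TPM, had 13 to 37 counts at 0 h and 30 to 33 at 24 h and did not pass.

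Counted over all 40 genes, the share higher was near that of all tested genes at 2 h and 8 h and below it at 4 h and 24 h. At 2 h 3 genes were higher (7.5%), against 6.6% of the 14485 tested genes, namely Hist1h1c, Hist1h2bc and Hist2h2be. At 4 h 5 were higher (12.5%), against 18.1% of tested genes, with Hist1h2bh and Hist1h4i added. At 8 h 10 were higher (25%), against 25.3%, and at 24 h 8 were higher (20%), against 30.7%. Counting both directions, 15.2%, 38.1%, 50.4% and 58.8% of tested genes passed at the 4 times. None of the 40 passed as lower against 0 h with edgeR, and at an unadjusted p under 0.05 the number lower was 0 at 2, 4 and 8 h and 4 at 24 h. DESeq2 called none lower at 2, 4 and 8 h and 1 at 24 h, Hist1h2bk. Among tested genes 8.59%, 19.9%, 25.1% and 28.1% were lower. Between 4 h and 24 h 5 genes were higher and 3 lower, against 24.9% and 23.4% of tested genes (48.3% in both directions). A change at any time passed for 13 of 40 (32.5%), against 74.2%. These shares were not matched for depth. Of the 40 genes, 25 had a median below 20 counts, where a change is harder to call.

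Calls went with depth. Of the 25 histone genes with a median below 20 counts, 2 passed at 8 h and 3 at 24 h, whereas of the 15 with 20 or more, 8 and 5 did. Among all tested genes 25.3% and 30.7% were higher at these times. The median log2 fold change of the 40 genes was 0.10, 0.43, 0.62 and 0.30 at 2, 4, 8 and 24 h, beside 0.01, 0.08, 0.09 and 0.07 over all tested genes. The time of the highest mean level depended on the scale. In TPM it was 24 h for 21 of the 40 genes, 8 h for 15, 4 h for 2 and 2 h for 2, whereas in CPM on TMM-scaled totals it was 24 h for 13, 8 h for 19, 4 h for 5, 2 h for 2 and 0 h for 1. Without the third 24 h library 9 genes were higher at 24 h, with Hist1h4a and Hist4h4 in and Hist2h4 out.

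**Figure D2:**
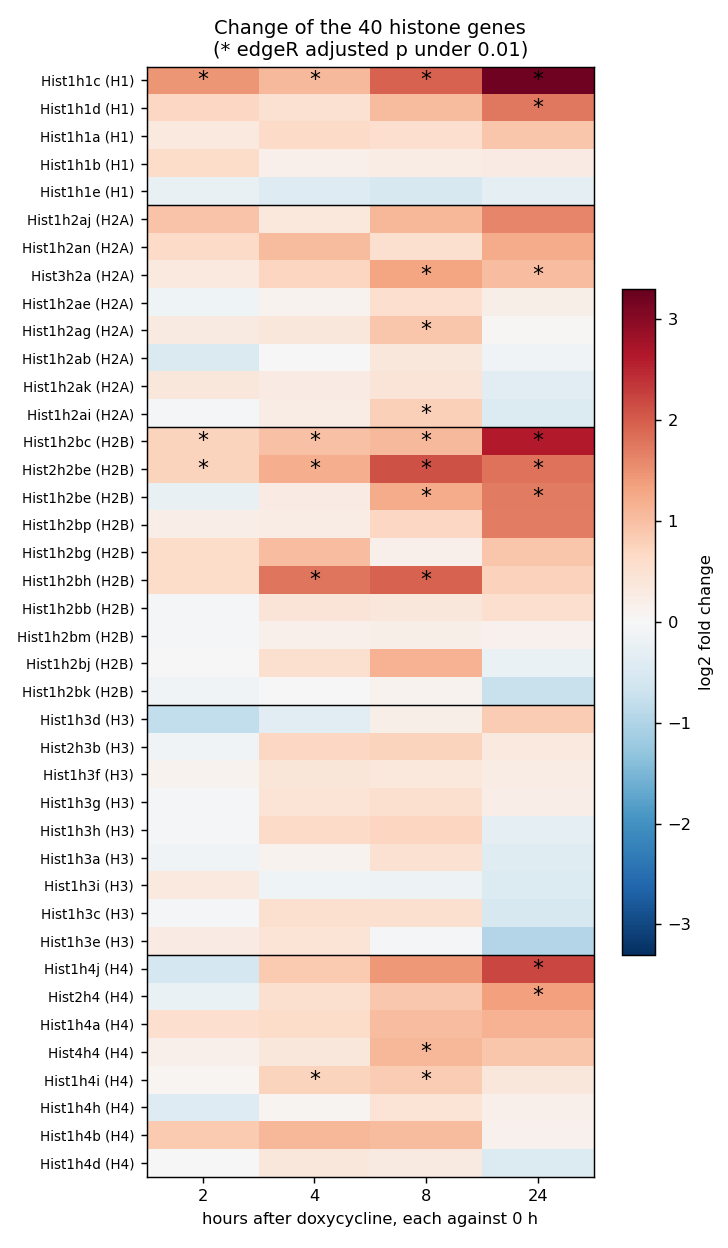
Log2 fold change of the 40 histone genes at 2, 4, 8 and 24 h (columns), each against 0 h, by color from blue (lower) to red (higher). Rows are genes grouped by class and sorted by the 24 h value, and a star marks an edgeR adjusted p under 0.01. The stars number 3, 5, 10 and 8 from left to right, and none falls in the H3 rows.

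The linker sum was further above 0 h at 24 h than the core sum. Without Hist1h1c the linker sum in TPM was 1.91 times the 0 h level, close to the full core sum. The core sum without Hist1h2bc and Hist2h2be was 1.35 times its 0 h level in TPM and 1.20 times in CPM on TMM-scaled totals. Summed over the 5 linker genes the level was 10.0 ± 0.65 TPM at 0 h (SD, n = 3), 23.4 ± 2.06 after 2 h, 18.0 ± 0.83 after 4 h, 31.0 ± 2.74 after 8 h and 86.4 ± 3.92 after 24 h, 8.62 times the 0 h level. The 35 core genes went from 107 ± 3.87 TPM to 123 ± 8.03, 148 ± 12.2, 185 ± 3.00 and 202 ± 5.14, 1.90 times the 0 h level. Expressed per library, the linker sum was 9.24% to 9.71% of the core sum at 0 h and 41.4% to 44.8% at 24 h. Without Hist1h1c the linker sum was 2.74% to 3.15% of the core sum at 0 h, 2.00% to 2.39% at 8 h and 2.76% to 3.06% at 24 h, so that the 8 h libraries lay below those of 0 h while the ranges of 0 h and 24 h overlapped. A sum over genes was not tested. Of 5 linker and 35 core genes, 1 and 2 passed as higher after 2 h, and 1 and 4 after 4 h. After 8 h 1 and 9 did, and after 24 h 2 and 6. Among all tested genes 6.6%, 18.1%, 25.3% and 30.7% were higher at these times, beside 5.71%, 11.4%, 25.7% and 17.1% of core genes. The median log2 fold change at 24 h was 0.90 for the linker and 0.24 for the core genes.

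Within the core genes H2B had the largest rise in summed TPM at both 8 h and 24 h, and at 24 h it made up most of the rise in the core sum. The H2B sum went from 30.0 ± 1.45 TPM at 0 h to 59.7 ± 5.16 at 8 h and 96.7 ± 3.43 at 24 h. H2A stood at 30.3 ± 1.60, 52.2 ± 0.38 and 43.2 ± 5.03, H4 at 22.1 ± 0.58, 38.7 ± 3.43 and 36.1 ± 2.22, and H3 at 24.1 ± 3.92, 33.9 ± 3.20 and 26.4 ± 2.94 TPM. The H3 libraries of 0 h and 24 h overlapped, while the H2A, H2B and H4 libraries did not. On CPM with TMM-scaled totals the H3 sum at 24 h was 0.89 of that at 0 h, against 1.10 in TPM, so its direction depended on the scale. Without Hist1h2bc and Hist2h2be the core sum was 95.1 ± 3.52 TPM at 0 h, 150 ± 3.03 at 8 h and 129 ± 5.96 at 24 h. Together Hist1h1c, Hist1h2bc and Hist2h2be held 15.2% to 16.2% of the histone TPM at 0 h, 27.9% to 29.4% at 8 h and 52.7% to 54.6% at 24 h. In the order of levels Hist1h1c stood behind Hist1h2bk, Hist1h4i and Hist1h2ag at 0 h, where its level and that of Hist1h2bc (6.77 ± 0.25 TPM) did not differ beyond their spread, and above all others at 24 h, followed by Hist1h2bc at 53.2 ± 2.17 TPM and Hist2h2be at 20.6 ± 3.41 TPM. Summed levels are per annotated length, and short models shared by many near-identical genes make the sums of H2A, H3 and H4 less certain than the values of these 3 genes.

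**Figure D3:**
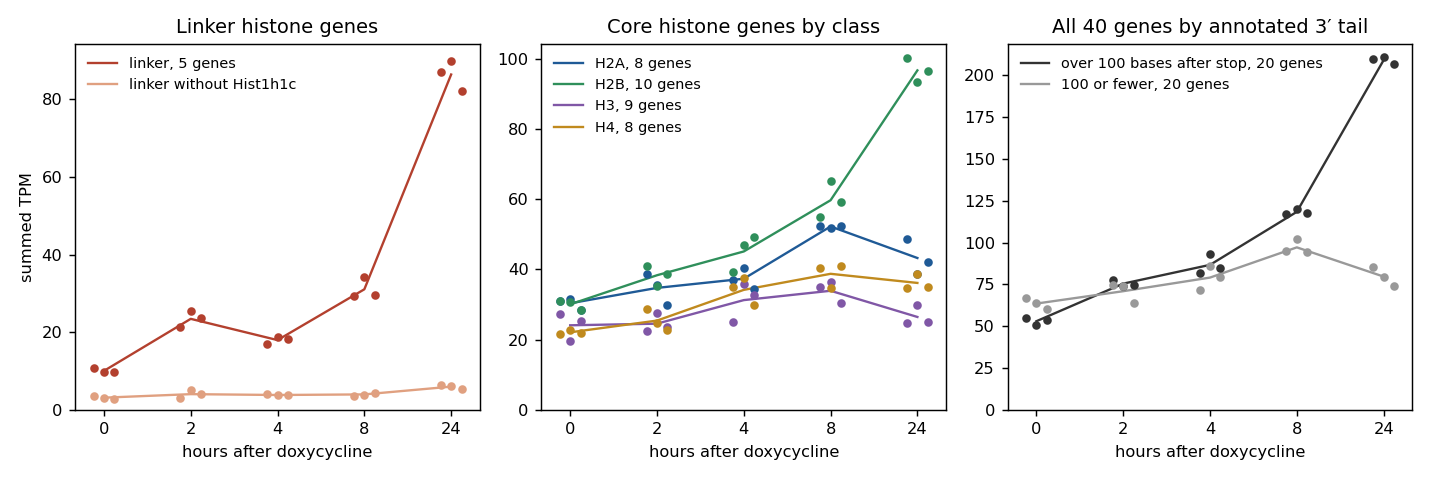
Summed TPM (vertical axes, from 0) of the linker genes with and without Hist1h1c, of the 4 core classes, and of the 40 genes split by annotated 3′ tail, against hours after doxycycline. Points are libraries and lines join the means of 3. The linker sum reaches 82.1 to 89.9 TPM at 24 h and the H2B sum 93.3 to 100.2, while the H3 libraries of 0 h and 24 h overlap.

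Most genes that passed had a long annotated 3′ end. Of the 40, 20 had more than 100 bases after the stop codon in M21 and 20 had 100 or fewer, or no coding transcript. All 3 genes higher at 2 h, all 5 at 4 h, 8 of 10 at 8 h and all 8 at 24 h had the long end. Of the 20 long-end genes 3, 5, 8 and 8 were thus higher, against 6.6%, 18.1%, 25.3% and 30.7% of all tested genes. All 8 that passed between 4 h and 24 h had the long end too, and 48.3% of all tested genes passed there in both directions. The median log2 fold change at 24 h was 0.92 with the long end and 0.15 without. Summed TPM went from 53.0 ± 2.15 at 0 h to 209 ± 2.24 at 24 h with the long end, and from 63.5 ± 3.43 to 79.7 ± 5.63 without it, with a level of 97.2 ± 4.14 at 8 h. In CPM on TMM-scaled totals the long-end sum at 24 h was 3.69 times that at 0 h, against 3.95 in TPM. The sum without the long end was 1.01 times, with overlapping libraries, against 1.25 in TPM, so its rise at 24 h depended on the scale. This split was chosen after the values were seen and carries no test. The sets differed in depth at the top, with mean counts per gene of up to 432 (median 16.8) and up to 47.4 (median 12.8). Split by sequence, 26 genes had at least 50% of their 50-base stretches unique, and 3, 5, 8 and 8 of them were higher at the 4 times. Of the 14 other genes 0, 0, 2 and 0 were. The parts of depth and of shared sequence in the calls were not tested. Split by a polyadenylation signal near the end of the model, 6 of 11 genes with it and 2 of 29 without it were higher at 24 h. The share over all tested genes was 30.7%. Split by the hairpin, 6 of 27 genes with it and 2 of 13 without it were higher at 24 h. The genes without it include models that end at the stop codon, whose real ends may hold a hairpin.

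The long end did not go with a rise in every gene. Hist1h1e, with 1209 bases after the stop codon, and Hist1h3f, with 417, did not pass at any time, and Hist1h3e, with 421, was among those that fell between 4 h and 24 h. Hist1h4d has 822 bases after the stop codon and also fell.

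**Figure D4:**
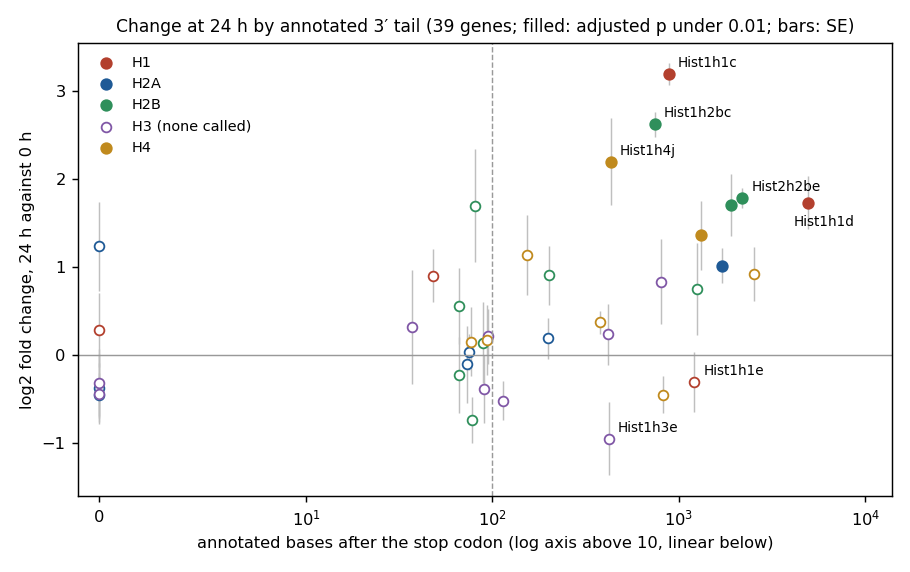
Log2 fold change at 24 h against 0 h (vertical axis, bars are SE) against the annotated bases after the stop codon (horizontal axis, log scale above 10) for the 39 genes with a coding model. Color marks the class, filled points have an adjusted p under 0.01 and the dashed line stands at 100 bases. The 8 filled points all lie to its right, together with open points at and below 0 such as Hist1h1e and Hist1h3e.

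The linker promoters were set side by side, since Hist1h1c and Hist1h1d rose while Hist1h1e did not pass. RefSeq promoters on GRCm38.p6 matched 34 of the 40 genes, and those of Hist1h2aj, Hist1h2bc, Hist2h2be, Hist1h3a, Hist1h3f and Hist2h4 were not matched. The 250 bases before the start are printed 5′ to 3′ in the direction of the gene, with matches on either strand to AAACACA (the AC box of linker genes), CCAAT and TATAAA in capitals. They are chr13:23738557-23738806 (plus strand), chr13:23554782-23555031 (plus strand, inside the longer M21 model) and chr13:23622559-23622808 (minus strand).
Hist1h1c: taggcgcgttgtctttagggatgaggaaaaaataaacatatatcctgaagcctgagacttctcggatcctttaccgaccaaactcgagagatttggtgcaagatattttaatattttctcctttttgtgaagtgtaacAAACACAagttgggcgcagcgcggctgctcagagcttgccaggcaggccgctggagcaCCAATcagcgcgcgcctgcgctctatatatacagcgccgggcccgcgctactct
Hist1h1d: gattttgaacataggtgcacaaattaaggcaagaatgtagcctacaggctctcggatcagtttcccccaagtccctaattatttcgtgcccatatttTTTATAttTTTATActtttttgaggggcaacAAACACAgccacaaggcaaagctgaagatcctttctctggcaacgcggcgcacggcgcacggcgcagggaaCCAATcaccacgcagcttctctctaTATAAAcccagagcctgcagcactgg
Hist1h1e: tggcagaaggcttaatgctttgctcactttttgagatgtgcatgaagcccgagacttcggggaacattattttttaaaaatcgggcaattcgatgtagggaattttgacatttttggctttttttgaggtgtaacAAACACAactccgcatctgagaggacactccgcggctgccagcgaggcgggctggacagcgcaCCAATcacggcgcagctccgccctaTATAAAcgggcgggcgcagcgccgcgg
All 3 hold AAACACA followed by CCAAT, and Hist1h1c alone of the 5 linker genes has no exact TATAAA in this window. After CCAAT, where Hist1h1d and Hist1h1e have TATAAA, Hist1h1c reads TATATATA, which the exact search did not count.

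Over the 34 matched promoters, AAACACA was found in 4 of 5 linker and 2 of 29 core genes, against 6.25% of all 32851 promoters in the table. CCAAT was found in 29 of 34, against 33.8%, with 2 of 7 H4 genes and all of the others holding it. TATAAA was found in 16 of 34, against 12.4%. The octamer ATTTGCAT, known from H2B promoters, was found in 4 of 8 H2B and 3 of 7 H2A genes, against 1.6%. The E-box CACGTG, a sequence that MYC with its partner MAX can bind, was found in none of the 34, against 6.02%. These matches describe the printed windows only.

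Several H2B genes start close to an H2A gene that is transcribed the other way, and some of these pairs were unequal in these libraries. Hist1h2ac starts 251 bases from Hist1h2bc and had 2 to 10 counts per library, while Hist1h2bc had 73 to 599. Hist2h2ac starts 239 bases from Hist2h2be and had 0 to 8 counts, while Hist2h2be had 108 to 549. The reverse was seen for Hist1h2ag, with 32 to 76 counts, and its neighbour Hist1h2bj, 270 bases away, with 8 to 32. Other pairs had overlapping counts, such as Hist1h2an with 3 to 25 and Hist1h2bp with 1 to 19, or Hist1h2aj with 1 to 18 and Hist1h2bm with 6 to 24.

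Outside these clusters, most of the tested histones that were listed as replication-independent were higher at 24 h. Of 11 listed, 10 were tested, and 6 were higher (60%) and 2 lower (20%) at 24 h, against 30.7% and 28.1% of all tested genes, with a median log2 fold change of 0.66 beside 0.07 over all genes. H1f0, the linker variant of resting and differentiated cells, went from 46.4 to 53.1 TPM at 0 h to 782 to 876 TPM at 24 h, by 3.72 ± 0.11 on the log2 scale (edgeR adjusted p = 3.07e-13). Unlike Hist1h1c it had not moved by 2 h, at 48.4 to 52.2 TPM, and it stood at 104 to 127 TPM at 4 h. H2afv was higher by 1.69 ± 0.14, H2afx, the variant phosphorylated at DNA breaks, by 0.91 ± 0.07 and H3f3a, a gene of the replacement histone H3.3, by 0.75 ± 0.14 (adjusted p of 3.93e-08, 7.09e-09 and 0.00027).

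Genes of histone mRNA 3′ processing and decay went both ways. Of 24 listed, 23 were tested, and 5 were higher (21.7%) and 9 lower (39.1%) at 24 h, against 30.7% and 28.1% of all tested genes. Slbp, which encodes the stem-loop binding protein, went from 73.9 to 78.6 TPM at 0 h to 126 to 142 at 2 h and 219 to 224 at 24 h (1.20 ± 0.07, edgeR adjusted p = 4.42e-10), and Mif4gd, an SLBP partner in translation, rose by 1.22 ± 0.11. Cpsf3, the nuclease that makes the 3′ cut of both histone and polyadenylated mRNAs, fell by 1.35 ± 0.08 (adjusted p = 2.91e-10), and Ncbp2, a cap-binding subunit, by 1.27 ± 0.08 (adjusted p = 1.58e-09).

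Of 30 S phase genes, 15 were higher at 2 h (50%, against 6.6% of all tested genes). At 24 h 13 were higher (43.3%, against 30.7%) and 5 lower (16.7%, against 28.1%). Slbp belongs to this list too. Rrm2, a subunit of the reductase that makes deoxynucleotides, went from 484 to 514 TPM at 0 h to 1937 to 2030 at 24 h (1.66 ± 0.08 on the log2 scale, adjusted p = 2.41e-11), Ccne2 rose by 1.10 ± 0.14, and Ung, a uracil glycosylase, fell by 1.11 ± 0.07. Among 25 histone chaperones, 9 were higher (36%) and 8 lower (32%) at 24 h, near the 30.7% and 28.1% of all tested genes. Asf1b, an H3-H4 chaperone of replication, rose (adjusted p = 1.62e-10), while Npm1, Set and Nap1l1 fell by 3.07 ± 0.13, 1.76 ± 0.06 and 1.10 ± 0.12 (adjusted p of 1.49e-11, 2.23e-12 and 5.59e-07).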

How the data were processed

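RNA-seq of polyA RNA was measured in 15 libraries, 3 per time point. For each library the authors deposited raw counts per gene and TPM, and the FPKM column was not used. Per the submitters' notes, the tools were cutadapt 1.16, STAR 2.5.4b and featureCounts on mm10. Strand setting, treatment of multi-mapping reads and annotation release were not given in the sources used here. Differential expression was computed from the deposited counts by edgeR 4.0.16 (R 4.3.3) after filterByExpr on the 5 groups (14485 genes) and TMM scaling, by the quasi-likelihood test of each time point against 0 h, of 24 h against 4 h and of any time point, with Benjamini-Hochberg adjusted p under 0.01 over all tested genes. SE are those of the log2 fold change. Groups follow the labelled hours. The fit was tested on simulated counts. Deposited TPM were used for levels and sums, which carry no test. Gene models are GENCODE M21 on GRCm38. A 50-base stretch was called shared when another gene's transcript holds it.

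The genes, lists and splits were chosen with earlier results of these data known. The named genes are every linker gene, the 2 most abundant genes of each core class, the 3 largest rises and falls among those that passed per comparison, genes of any count of 5 or fewer, up to 4 of each list by size of change at 24 h and the transgene. Hist3h2a, Hist2h4, Hist1h3f, Hist1h4a, Hist4h4, Hist1h2bk as a call of DESeq2, and the neighbouring gene pairs were named after their values were seen. The alternatives were RLE, upper-quartile and library-total scaling, other count filters, DESeq2 1.42.0, only the groups compared, an adjusted p under 0.05, a replicate block and leaving out each library. Counts per gene set the precision, and most members had under 20 counts per library.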

Additional observations from a re-analysis of the deposited data

How the results depend on the processing

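Of 34 calls of single genes, 21 were kept under every alternative that tested them, 3 of which (Hist1h1d, Hist1h2be and Hist1h4j at 24 h) had too few counts for the filter of 10 counts in every library, 13 were lost in at least 1, and none changed direction. Hist4h4, called at 8 h, was lost in 12 of 23. An adjusted p under 0.05 gave 9 genes higher at 4 h, 16 at 8 h and 16 at 24 h, 2 lower at 24 h, 9 lower between 4 h and 24 h and 20 at any time. Requiring 10 counts in every library left 4 higher at 24 h, 3 higher between 4 h and 24 h and 8 at any time, because fewer genes were tested. Without a low-count filter and with DESeq2, 1 gene was lower at 24 h. Fitting only 4 h and 24 h gave 3 higher and 0 lower, and library totals gave 1 lower, the cause of which was not tested. Library totals moved the median of all genes at 24 h from 0.07 to 0.35 on the log2 scale. Leaving out 1 library gave 2 to 3 genes higher at 2 h, 4 to 6 at 4 h, 6 to 10 at 8 h (6 without the third 0 h library), 7 to 9 higher and 0 to 1 lower at 24 h (1 without the first 24 h library), 4 to 6 higher and 1 to 3 lower between 4 h and 24 h (1 without the second 4 h library), and 10 to 13 at any time. The linker sum at 24 h was 8.62 times that at 0 h in TPM, 7.18 times in CPM on TMM-scaled totals, 9.16 times without members that overlap another gene, 1.91 times without Hist1h1c, and 8.45 to 8.96 times with 1 library left out. The core sum was 1.90 times that at 0 h, 2.04 in CPM on TMM-scaled totals, 2.47 on library totals, 2.12 without overlapping members, 2.66 with members mostly unique in their 50-base stretches (chosen after seeing the data), and 1.87 to 1.94 with 1 library left out.

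No pairing of the samples by replicate number was seen, though 3 libraries per group cannot exclude one. Libraries with the same number at different times correlated at −0.60 to 0.54 (median 0.04), and those with other numbers at −0.48 to 0.55 (median −0.02). Of 15 libraries, 5 correlated best with their own number. A replicate block left the counts at 3, 5, 10 and 8 genes higher at 2, 4, 8 and 24 h, 5 higher and 3 lower between 4 h and 24 h and 13 at any time. Depth limits most members: with fewer than 20 counts a gene, sampling error alone is large, and a gene that did not pass may still have changed.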
